A study of Mus musculus with 26 samples.

Results

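Messenger RNA splicing factors and RNA helicases were followed in whole hearts of mouse embryos at embryonic day 12.5. The genes were taken by their names. A probe set was included if its annotation gave a single gene symbol of the families Hnrnp, Srsf, Sf3a or Sf3b, Snrp, U2af, Ddx, Dhx, Prpf or Lsm, and no measured value entered the choice. This gave 91 probe sets of 71 genes, out of 13069 probe sets naming 6137 genes on 2 array designs (A and B), with 76 of the 91 on A and 15 on B. The model carries a deletion of the NK2-specific domain, a conserved stretch of the cardiac homeodomain transcription factor Nkx2.5. The labels call 4 hearts null (3, 4, 8 and N3), 4 heterozygous (5, 6, 12 and N2) and 5 wild type (1, 2, 7, 9 and N1) for it, and total RNA of each heart was run once on each design. They name no strain, sex, litter or pairing, and p-values therefore describe how far these 13 hearts vary among themselves. The annotation used here gives the symbol Nkx2-5 to no probe set, so the altered gene itself was not analysed here.

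Splicing removes introns in a large RNA and protein machine, the spliceosome, built on small nuclear ribonucleoproteins (snRNPs). Sm proteins (some of the Snrp genes) and many Lsm proteins form rings around its small RNAs. The U2AF and SF3 proteins recognise the end of the intron and the branch site, and the Prpf proteins and helicases drive rearrangements of the spliceosome. SR proteins (Srsf genes) bind exons and usually favour their inclusion, whereas heterogeneous nuclear ribonucleoproteins (hnRNPs) coat the nascent RNA and often act in the other direction. DEAD-box (Ddx) and DEAH-box (Dhx) helicases use ATP to open RNA duplexes or remodel RNA and protein complexes, also in ribosome assembly, translation and RNA decay. In the heart, splicing choices set which forms of sarcomere and ion channel proteins are made, and they shift during development.

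Signal was a linear intensity, and values below 2 times the noise of a table (a floor of 887 on A and 1373 on B) were raised to that floor before log2. Of the 91 probe sets, 75 of 59 genes (63 on A, 12 on B) were tested, together with all 4494 probe sets that passed the same filter of at least 4 hearts above the floor and 2 values in each genotype. The other 16 were not tested, and 12 genes had no tested probe set. Probe set names ended in f for 13 of the 91 and in s for 52, suffixes of the array maker for probes that can also match related sequences, so that close relatives such as Ddx5 and Ddx17 may share signal. On 3 A and 3 B arrays over 50 percent of the cells were blank and were treated as missing. As a result 54 of the 75 tested probe sets lacked a value in some heart, and 29 had only 2 heterozygous values. Markers of cardiomyocytes were above the floor in every heart in 11 of 11 probe sets, and liver markers in 0 of 6. The tested splicing and helicase probe sets spread slightly less than the rest: their median standard deviation within a genotype was 0.26 on the log2 scale, against 0.27 over all tested probe sets.

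Most of these genes were clearly detected. Of the 91 probe sets, 55 were above the floor in every heart that had a value, and 10 in no heart. Over all 13069 probe sets the same counts were 3077 and 7606. Counts by family follow, and several of them rest on few probe sets. Among hnRNP genes, 14 of 22 probe sets were above the floor in every heart, among Snrp genes 8 of 9, among SF3 genes 5 of 6, among Lsm genes 4 of 5, among Ddx genes 13 of 21, among SR genes 5 of 12, among Prpf genes 3 of 8, among Dhx genes 3 of 6 and among U2AF genes 0 of 2. Probe sets differ in how strongly they bind, so that the signals of different genes were not set against each other.

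**Figure D1:**
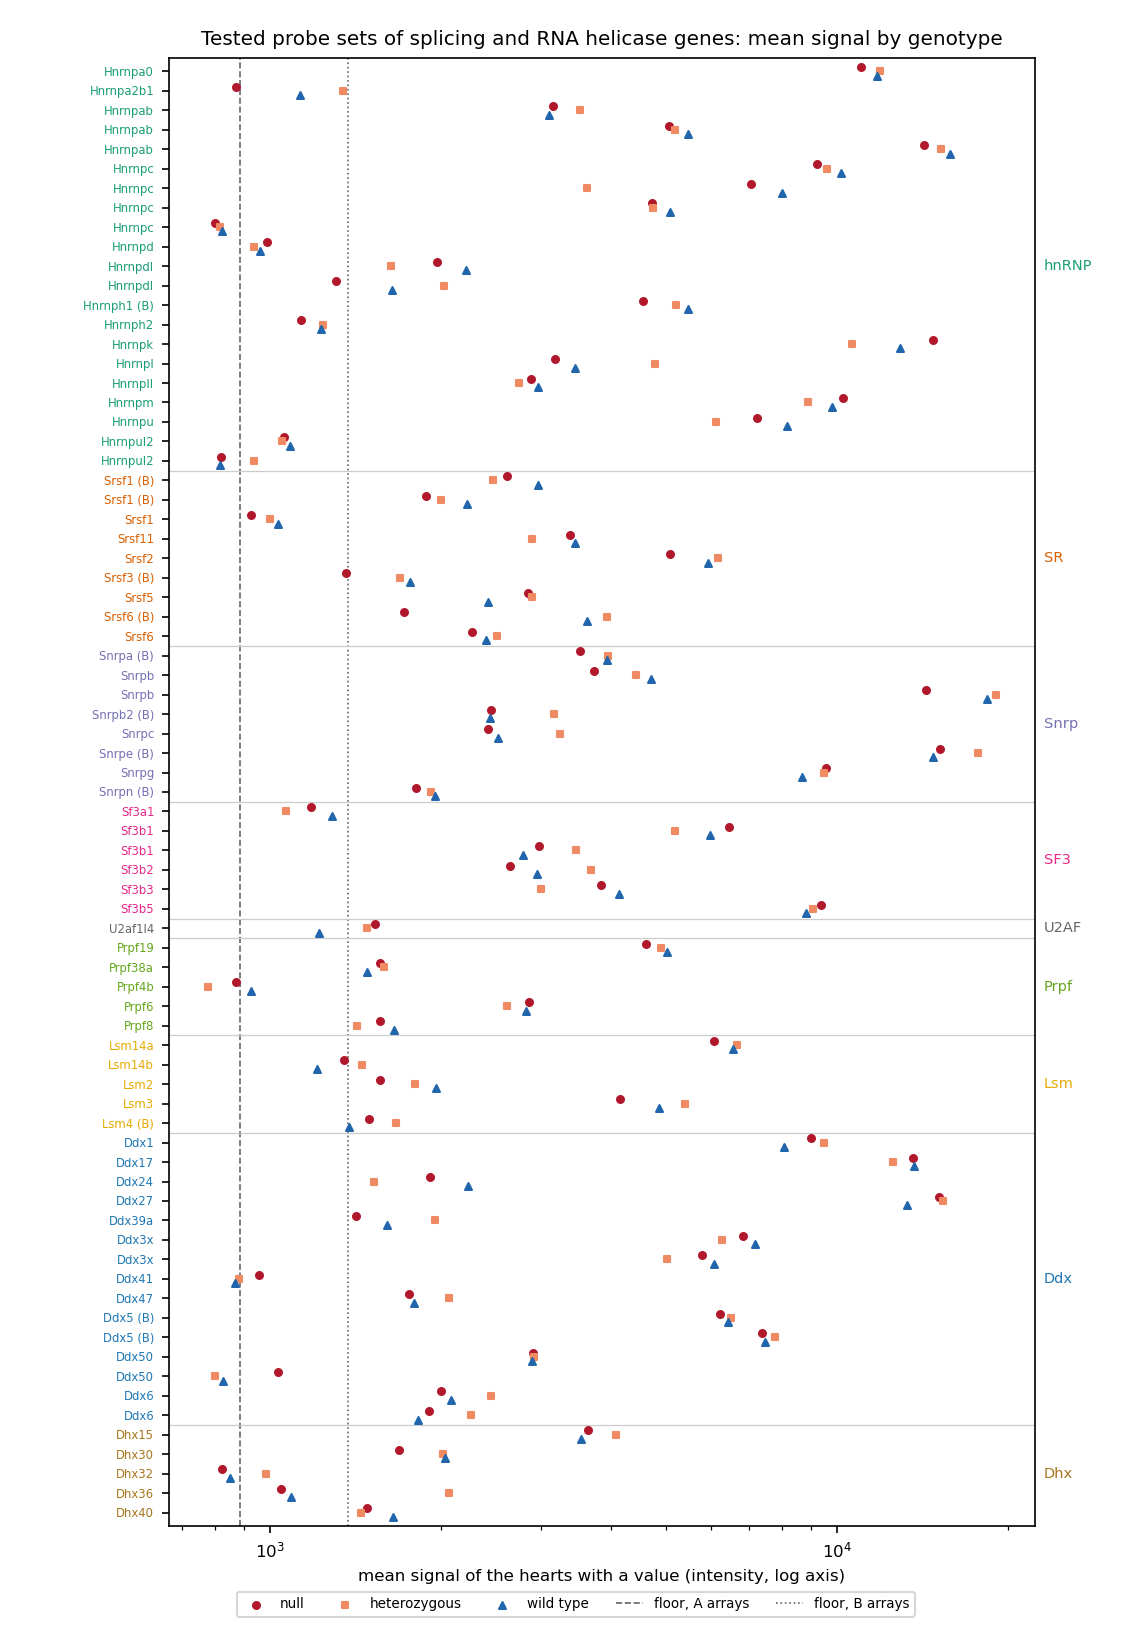
Mean signal (log axis) of the 75 tested probe sets in null (circles), heterozygous (squares) and wild-type (triangles) hearts, 1 row per probe set, coloured by family; (B) marks the B array and the vertical lines are the floors of 887 (A) and 1373 (B). The 3 genotype means of a probe set mostly lay close together, and the widest gap in the hnRNP block is a Hnrnpc probe set whose heterozygous mean was 3620.1.

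Of the snRNP proteins, Snrpb, which encodes the SmB ring protein, averaged 14296 ± 2316 in null hearts (SD, n = 3), 18998 ± 4917 in heterozygous hearts (n = 2) and 18373 ± 875 in wild-type hearts (n = 4). Snrpe, encoding the SmE ring protein, averaged 15178 ± 1864 in null, 17655 ± 1580.4 in heterozygous and 14732 ± 1734 in wild-type hearts (n = 4, 4 and 5). For Snrpg, the SmG protein, the means were 9565 ± 1162, 9453 ± 1251 and 8659.9 ± 1551 in the same order. Snrpn, the imprinted SmB paralogue best known from neurons, was above the floor in all 13 hearts, at 1810.0 ± 332, 1922 ± 541 and 1952 ± 550.1. Its groups, like those of Snrpe and Snrpg, overlapped. Snrpa1, of the U2 particle, was above the floor in no heart, although its partner Snrpb2 was above it in all 13.

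Among hnRNP genes, Hnrnpab, which encodes an A/B-type RNA-binding protein, averaged 14184 ± 1107 in null hearts (n = 4), 15199 ± 896 in heterozygous hearts (n = 2) and 15780.3 ± 1523 in wild-type hearts (n = 4) by its brightest probe set. A further Hnrnpab probe set stayed below the floor in all 12 hearts with a value, between -150.0 and 96.3, so that probe sets of 1 gene did not all report it. Hnrnpk, a poly(C)-binding protein that acts from transcription to translation, averaged 14732 ± 1195, 10603 ± 1805 and 12874 ± 2061 (n = 4 each). Among SR genes, Srsf2, an SR protein of constitutive and regulated splicing, averaged 5066 ± 712 in null, 6155 ± 472 in heterozygous and 5926 ± 622 in wild-type hearts (n = 3, 2 and 4). Srsf11 averaged 3377 ± 380.5, 2900.0 ± 635 and 3443 ± 474 (n = 4, 4 and 5). Srsf4 and Srsf10, 2 further SR proteins, reached the floor in 2 and 3 of 13 hearts and were not tested.

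The branch-site complex was represented by Sf3b5, a small subunit of SF3b, at 9352 ± 1308 in null, 9042 ± 1250.0 in heterozygous and 8810.3 ± 1574 in wild-type hearts (n = 4, 4 and 5). Sf3b1, the large SF3b subunit that clamps the branch site, averaged 6434 ± 1288, 5166 ± 1181 and 5972 ± 1107 (n = 4 each). The 2 U2AF genes gave little signal: U2af2, the large subunit that binds the polypyrimidine tract, was above the floor in no heart (344 to 1204), and U2af1l4, a paralogue of the small subunit, in 11 of 13. Prpf19, a ubiquitin ligase of the spliceosome, averaged 4609.7 ± 743, 4888 ± 571 and 5013 ± 959 (n = 4, 4 and 5). Prpf8, the catalytic-core scaffold, was seen by 1 of its 2 probe sets, in 12 of 13 hearts, and by the other in none. Prpf38b and Prpf39 were above the floor in no heart. Lsm14a, a component of cytoplasmic processing bodies, varied little, at 6059 ± 348, 6667 ± 473 and 6541 ± 260.5 (n = 4 each).

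Of the helicases, Ddx17, a transcriptional co-regulator that also acts in splicing, averaged 13615 ± 1901 in null, 12549 ± 1368 in heterozygous and 13669 ± 1397 in wild-type hearts (n = 4, 4 and 5). Its close relative Ddx5 averaged 7351 ± 591, 7777 ± 379.5 and 7468 ± 916. Ddx27, a nucleolar helicase of ribosome assembly, averaged 15121 ± 4920.4, 15322 ± 4289 and 13254 ± 3251. Dhx15, which takes spent spliceosomes apart, averaged 3642 ± 768, 4077 ± 374 and 3535 ± 749 (n = 4, 2 and 4). Ddx4, the helicase Vasa of the germ line, was above the floor in no heart (125 to 964). The same held for Ddx19b, a helicase of mRNA export, for the nucleolar helicase Ddx21, and for the splicing helicase Dhx16 (40.8 to 232).

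Null against wild-type hearts asked whether these genes differed when the NK2-specific domain was missing. None of the 75 tested probe sets passed an adjusted p of 0.05 (limma, Benjamini-Hochberg over all 4494 probe sets, of which 0.0223% passed), and their smallest adjusted p was 0.9999. At an unadjusted p under 0.05 there were 2 of 75, Srsf6 and Snrpb, against 2.4% of all tested probe sets. For 73 of the 75 the 95% interval of the log2 difference lay within -1 and 1, so that a 2-fold difference was outside it, and the median interval reached 0.41 to either side. The exceptions were 1 probe set each of Hnrnpc and Srsf6. The median log2 difference of the 75 was -0.07, with 52 lower and 23 higher in null hearts, against a median of -0.01 over all tested probe sets, of which 51.4% were lower. The shift depended on single hearts. Without null heart 4 the median of the 74 probe sets still testable was -0.0012, with 38 lower and 36 higher. It was -0.03 without wild-type heart N1 (71 testable, 31 higher). Without null heart 3 it was -0.11 (72 testable, 16 higher). Leaving out heterozygous heart 5 or 12 also gave -0.03 (46 testable, 19 higher). Those 2 hearts do not enter this difference, so that only the set of testable probe sets changed. In bulk hearts, fewer cells of a type and less RNA per cell cannot be told apart.

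**Figure D2:**
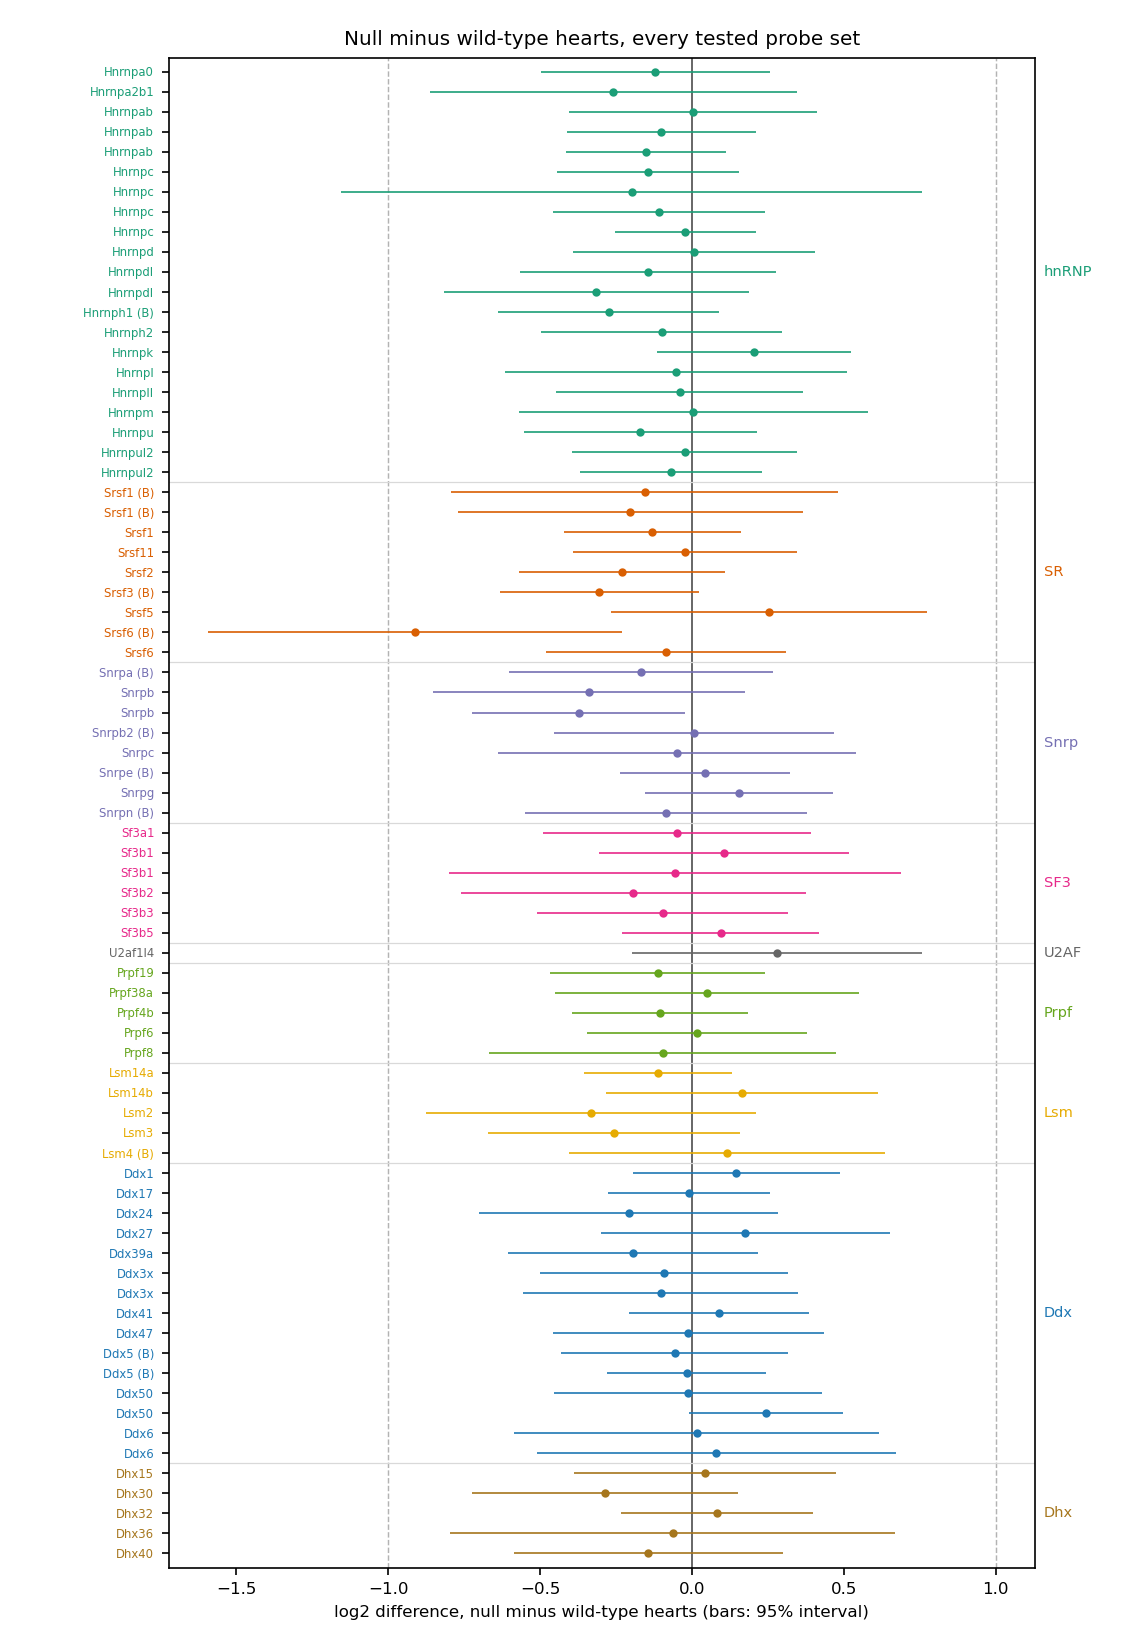
Log2 difference between null and wild-type hearts (point) with its 95% interval (bar) for the 75 tested probe sets, coloured by family; dashed lines mark -1 and 1. Nearly all intervals include 0, and those of Srsf6 (on the B array) and of 1 of the 2 Snrpb probe sets lie below it.

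By family, hnRNP genes had a median log2 difference of -0.10 between null and wild-type hearts, with 17 of 21 probe sets (14 genes) lower. SR genes had a median of -0.16, with 8 of 9 probe sets (6 genes) lower and Srsf5 (0.25 ± 0.24, SE) the exception. Probe sets of 1 gene were counted separately, for example 4 of Hnrnpc and 3 of Srsf1, and are not independent of each other. The medians were -0.07 for Snrp, -0.05 for SF3, -0.10 for Prpf and -0.11 for Lsm genes. For helicases they were -0.01 for Ddx genes (6 of 15 higher) and -0.06 for Dhx genes (2 of 5 higher), and the only tested U2AF gene, U2af1l4, had 0.28 ± 0.23. No family held a probe set that passed the adjusted threshold. The hnRNP and SR medians kept their sign under all 22 alternatives, ranging from -0.13 to -0.07 and from -0.24 to -0.01. Not every alternative could move a median, however. Dropping the variance trend, using the printed gene symbols or leaving out heterozygous heart 6 or N2 left the median of all 75 at -0.07. Leaving out heterozygous heart 5 or 12 changed only which probe sets were testable. By heart, however, the genotypes overlapped in both families. The hnRNP median deviation of a heart ran from -0.15 to 0.06 in null and from -0.18 to 0.13 in wild-type hearts. The -0.18 came from wild-type heart 1, which had values for only 3 of the 21 hnRNP probe sets. Without that heart the wild-type range was -0.05 to 0.13, still overlapping. For SR genes it ran from -0.30 to 0.11 in null and from -0.09 to 0.29 in wild-type hearts. The other medians below 0 did not keep their sign. It changed under 2 of 22 alternatives for Snrp, Prpf and Lsm, 4 for SF3, and 6 each for Ddx and Dhx. The changes for Lsm, and some for SF3, Ddx and Dhx, came without heterozygous heart 5 or 12. Those hearts do not enter this difference, and leaving them out only removed probe sets (4 Lsm, 4 SF3, 10 Ddx and 1 Dhx were left). With quantile scaling the Snrp median was 0.0036 and the Ddx median 0.02. Without null heart 4 the medians were 0.06 for SF3, Ddx and Dhx and 0.08 for Prpf, and without heterozygous heart 5 or 12, which left 1 Dhx probe set, 0.08 for Dhx.

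Srsf6 had the largest difference of these genes between null and wild-type hearts. Its B probe set gave 2385, 950.0 and 1828 in null hearts 4, 8 and N3, against 4583, 4179 and 2083 in wild-type hearts 1, 2 and 7, and it was blank in null heart 3 and wild-type hearts 9 and N1. Null heart 8 was below the floor and entered the fit at the floor. In heterozygous hearts it gave 4077, 3653, 3833 and 4155. Null and wild-type hearts overlapped, since wild-type heart 7 lay below null heart 4, whereas every null heart lay below every heterozygous heart. The log2 difference was -0.91 ± 0.31 between null and wild-type hearts (SE, unadjusted p = 0.0128, adjusted p = 0.9999 in limma). Srsf6 encodes an SR protein of alternative splicing, and its second probe set, on the A array and without blanks, did not show the difference: 2274 ± 417 in null and 2400.1 ± 321 in wild-type hearts (n = 4 and 5; log2 -0.09 ± 0.19).

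Snrpb was lower in null hearts by both of its probe sets, without passing the test. The brighter one gave 13049.8, 16968 and 12871 in null hearts 3, 4 and N3, against 18702, 18011, 19404 and 17376 in wild-type hearts 2, 7, 9 and N1. The highest null value lay below the lowest wild-type value, and the log2 difference was -0.37 ± 0.16 (unadjusted p = 0.0389, adjusted p = 0.9999). The dimmer probe set, of the kind whose probes are shared among similar sequences, differed by -0.34 ± 0.24, with 3733 ± 1245 in null and 4701 ± 1426 in wild-type hearts (n = 4 and 5), and overlapped. Groups that did not overlap occurred in 2 of the 75 probe sets, both lower in null hearts, against 2.34% of all tested probe sets (1.2% lower, 1.13% higher). The other was Lsm2, a member of the ring on U6 RNA, at 1434, 1586 and 1667 in null hearts 3, 4 and N3, against 2042 and 1891 in wild-type hearts 2 and N1, with a log2 difference of -0.33 ± 0.25. It was blank in the remaining hearts of both genotypes.

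Null and wild-type hearts overlapped in the other members named for this comparison, which had the next smallest p-values overall or the smallest of their family. Srsf3, an SR protein that also promotes mRNA export, gave 1351, 1048, 1489.5 and 1559.9 in null hearts 3, 4, 8 and N3, against 1117, 1549, 1949.7, 1987 and 2215 in wild-type hearts 1, 2, 7, 9 and N1 (log2 -0.31 ± 0.15, unadjusted p = 0.0662). Wild-type hearts 1 and 2 lay within the range of the null hearts, and 3 of the 13 hearts were below the floor. Hnrnph1, which binds runs of G and regulates exon choice, averaged 4549 ± 881 in null and 5455 ± 714 in wild-type hearts (n = 4 and 5; log2 -0.27 ± 0.17). Dhx30, a helicase of mitochondrial ribosome assembly, differed by -0.29 ± 0.20, Sf3b2 by -0.19 ± 0.27 and Prpf4b, a kinase of the spliceosome, by -0.10 ± 0.13. In the other direction, Ddx50 had 1033 ± 263 in null and 826 ± 133 in wild-type hearts (n = 4 each; log2 0.24 ± 0.12 with values below the floor raised to it), and its second probe set had -0.01 ± 0.21. Hnrnpk differed by 0.20 ± 0.15 and Snrpg by 0.15 ± 0.15. None of these genes passed the test.

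**Figure D3:**
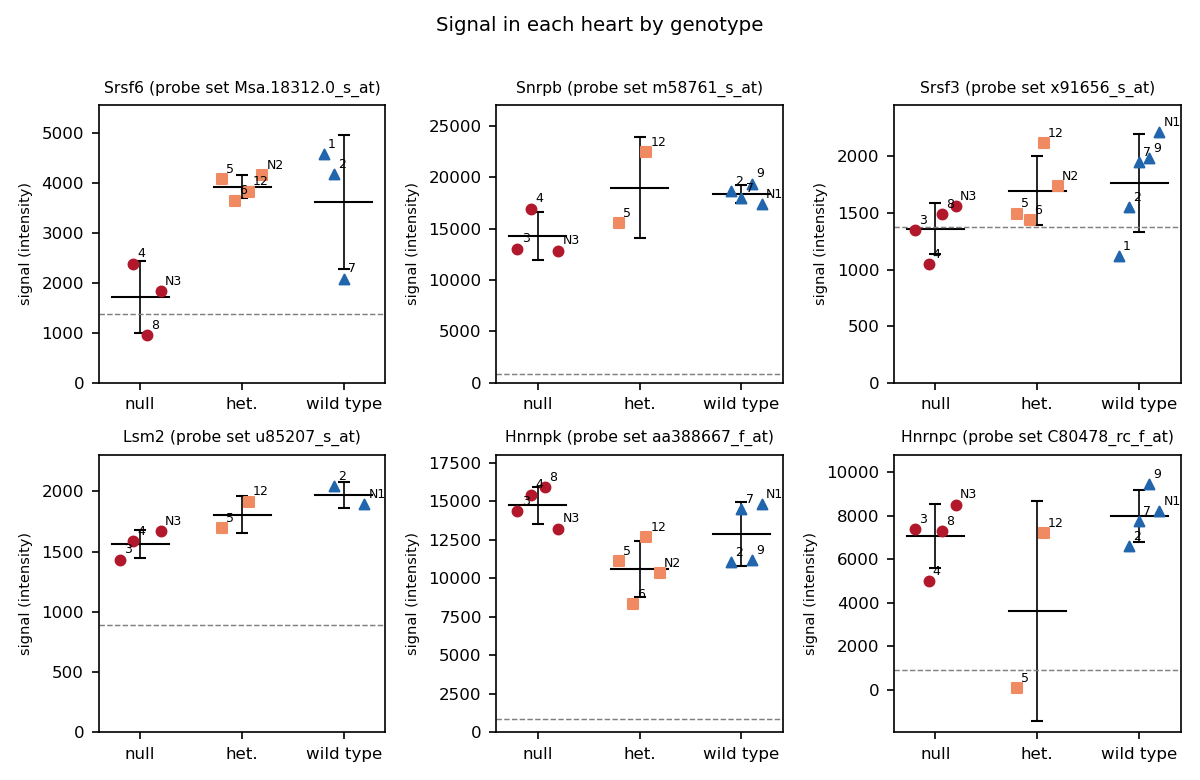
Signal in each heart (points, with the heart's number) for 6 probe sets named in the genotype comparisons, with the genotype mean (line) and SD (bar); the dashed line is the floor. Null hearts lie below wild-type hearts without overlap for Snrpb and Lsm2, below heterozygous hearts for Srsf6 and above them for Hnrnpk, and heterozygous heart 5 stands at 49.4 for Hnrnpc.

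Heterozygous against wild-type hearts asked whether a single altered allele went with a difference. None of the 75 passed (0% of all tested probe sets did), with a smallest adjusted p of 0.981, and 1 of 75 had an unadjusted p under 0.05 against 3.38% of all. The median log2 difference of the 75 was 0.01, with 40 higher and 35 lower, against -0.01 over all tested probe sets, and 68 of 75 intervals lay within -1 and 1. For snRNP proteins the median was 0.08, with 6 of 8 probe sets higher. Among them Snrpe gave 15847, 17701, 19691 and 17381 in heterozygous hearts, against 12066, 14742, 14327, 16438 and 16088 in wild-type hearts (log2 0.27 ± 0.13), and Snrpb2, a U2 snRNP protein, differed by 0.39 ± 0.22. Dhx36, a helicase that opens G-quadruplexes, differed by 0.75 ± 0.42 and Hnrnpl by 0.52 ± 0.32, each on 2 heterozygous hearts. Lower were Ddx24, a nucleolar helicase (-0.55 ± 0.26, on 2 heterozygous hearts), 1 Hnrnpdl probe set (-0.41 ± 0.21) and Hnrnpu, a chromatin-bound scaffold (-0.39 ± 0.19). The second Hnrnpdl probe set went the other way, with 0.33. In Ddx24 and the lower Hnrnpdl probe set the genotypes did not overlap. This held for 2 of 75, both lower in heterozygous hearts, and for 5.94% of all tested probe sets (3.27% lower, 2.67% higher).

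The largest difference between heterozygous and wild-type hearts, in Hnrnpc, rested on 1 value. The probe set gave 49.4 in heterozygous heart 5 and 7191 in heterozygous heart 12, against 6581, 7738, 9457 and 8218 in wild-type hearts 2, 7, 9 and N1 (log2 -1.65 ± 0.55 with heart 5 raised to the floor, unadjusted p = 0.00928, adjusted p = 0.981). Hnrnpc encodes the abundant C-type hnRNP of nascent RNA, and its other 3 tested probe sets did not show a low heart 5: the same heart gave 9330.2, 4109 and 956 there, against 9850.4, 4585 and 680.3 in heterozygous heart 12. Their log2 differences were -0.08 ± 0.17, -0.10 ± 0.18 and -0.03 ± 0.13.

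Null against heterozygous hearts gave no call either (0% of all tested probe sets passed; smallest adjusted p of these genes 0.774). At an unadjusted p under 0.05 there were 5 of 75, against 5.79% of all, and the groups did not overlap in 7 of 75 (5 lower and 2 higher in null hearts), against 8.06% (3.98% lower, 4.07% higher). The median of the 75 was -0.08, with 50 lower, against 0.02 over all tested probe sets. Without heterozygous heart 5, which left 46 testable probe sets, it was -0.01. All 5 Lsm probe sets and 7 of 8 Snrp probe sets were lower, with medians of -0.14 and -0.25. Srsf6 on the B array differed by -1.11 ± 0.29 (unadjusted p = 0.00247). Hnrnpk gave 14365, 15420.3, 15918 and 13226 in null hearts, against 11133, 8316, 12647 and 10316 in heterozygous hearts, so that every null heart was above every heterozygous heart (log2 0.49 ± 0.15, unadjusted p = 0.00522). Ddx39a, an export helicase, differed by -0.48 ± 0.21. The 2 Hnrnpdl probe sets went opposite ways without overlap in either, with -0.64 ± 0.29 and 0.27 ± 0.21.

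Genes with several tested probe sets served as an internal check of the differences between null and wild-type hearts. There were 12 such genes with 28 probe sets (Ddx3x, Ddx5, Ddx50, Ddx6, Hnrnpab, Hnrnpc, Hnrnpdl, Hnrnpul2, Sf3b1, Snrpb, Srsf1 and Srsf6). In 9 of the 12 the probe sets had the same sign, and in Ddx50, Hnrnpab and Sf3b1 they did not. The range within a gene was under 0.25 on the log2 scale in 10 of 12, with a median of 0.11. Srsf1, the founding SR protein, gave -0.13, -0.16 and -0.20 by 3 probe sets, Ddx3x gave -0.09 and -0.10, and Ddx5 gave -0.02 and -0.06. The widest range, 0.83, was that of Srsf6.

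Heart by heart, the median deviation of the tested probe sets from their own means was 0.06, -0.15, -0.10 and 0.03 in null hearts 3, 4, 8 and N3. It was 0.04, -0.05, 0.03 and 0.10 in heterozygous hearts 5, 6, 12 and N2, and 0.01, 0.01, -0.07, 0.06 and 0.12 in wild-type hearts 1, 2, 7, 9 and N1. The null hearts thus lay on both sides of 0 and within the range of the other genotypes, except hearts 4 and 8, which were the lowest of the 13. SR genes gave -0.30 in null heart 8 and 0.29 in wild-type heart N1, the widest span among the hearts for that family. Over all tested probe sets the same measure stayed between -0.05 and 0.02 in every heart. Wild-type heart 1 and heterozygous hearts 6 and N2 had values for only 27, 36 and 46 of the 75 probe sets. Their medians therefore rest on smaller sets than those of the other hearts.

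**Figure D4:**
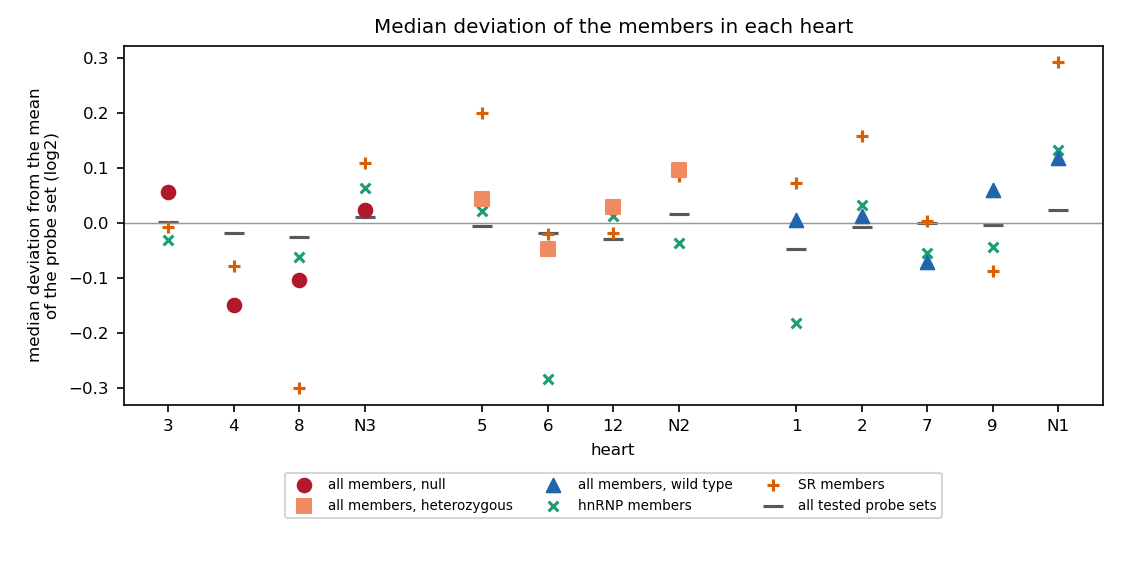
Median deviation (log2) of the tested splicing and helicase probe sets from their own means in each heart, coloured by genotype, with the medians of hnRNP (x) and SR (+) probe sets and of all tested probe sets (dashes). Null hearts 4 (-0.15) and 8 (-0.10) are the lowest, null hearts 3 and N3 lie above 0, and the dashes stay near 0.

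The heart numbers formed 2 groups, 7 hearts numbered 7 to 12 or N (null 8 and N3, heterozygous 12 and N2, wild-type 7, 9 and N1) and 6 hearts numbered 1 to 6, each holding all 3 genotypes. What the numbers stand for is not given in the sources used here. With genotype in the model, 4 of the 75 tested probe sets differed between these groups at an adjusted p under 0.05, against 7.14% of all tested probe sets, so that their share was no higher than the background. Hnrnpm, Hnrnpa0 and Srsf3 were higher in hearts 7 to 12 and N (3 of 75, against 3.87% of all called higher) and Ddx1 was lower (1 of 75, against 3.27% called lower). A further 8 had an unadjusted p under 0.05 without passing (12 in all, against 24.7% of all tested probe sets). The median log2 difference of the 75 was 0.04, against 0.02 over all.

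Hnrnpm, an RNA-binding protein that promotes exon skipping, gave 15642, 10534, 11142, 10706, 13093, 8518 and 11968 in hearts 8, N3, 12, N2, 7, 9 and N1, against 9282, 5403, 8117, 5569, 8131 and 7172 in hearts 3, 4, 5, 6, 1 and 2. Only wild-type heart 9 fell within the range of hearts 1 to 6. The log2 difference was 0.68 ± 0.15 (SE, adjusted p = 0.0174). Hnrnpa0, which binds AU-rich sequences, gave 13588, 13223, 13704, 12797, 11733, 12657 and 12608 in the same 7 hearts, against 8667, 8507, 11742, 9353 and 9879 in hearts 3, 4, 5, 6 and 2 (log2 0.44 ± 0.10, adjusted p = 0.0174). The groups met at wild-type heart 7 and heterozygous heart 5.

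Srsf3 averaged 1865 ± 276 in hearts 7 to 12 and N and 1333 ± 206 in hearts 1 to 6 (SD, n = 7 and 6; log2 0.35 ± 0.09, adjusted p = 0.0353). Its signal was above the floor in 7 of 7 and 3 of 6 hearts in the same order, so that the floor makes this log2 difference smaller than that of the means. Ddx1, a helicase that takes part in tRNA ligation, averaged 7718 ± 861 and 9989 ± 1319.7 in the same order (n = 7 and 6; log2 -0.35 ± 0.10, adjusted p = 0.0444). Both overlapped between the groups, and neither Srsf3 nor Ddx1 kept its call in most leave-outs: without 1 heart at a time, the adjusted p was under 0.05 in 5 of 13 cases for Srsf3 and in 3 of 13 for Ddx1, against 13 of 13 for Hnrnpm and 12 of 13 for Hnrnpa0. Null heart 4 ended the call of Hnrnpa0 (adjusted p = 0.0513). The one probe set without overlap, Hnrnpul2 at 682 ± 96.8 against 1083 ± 163 (n = 6 and 4), was above the floor in 0 of 6 and 4 of 4 hearts, so that its level in hearts 7 to 12 and N has only an upper bound, and it did not pass (adjusted p = 0.0984). Groups that did not overlap made up 7.17% of all tested probe sets (3.76% lower, 3.4% higher).

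**Figure D5:**
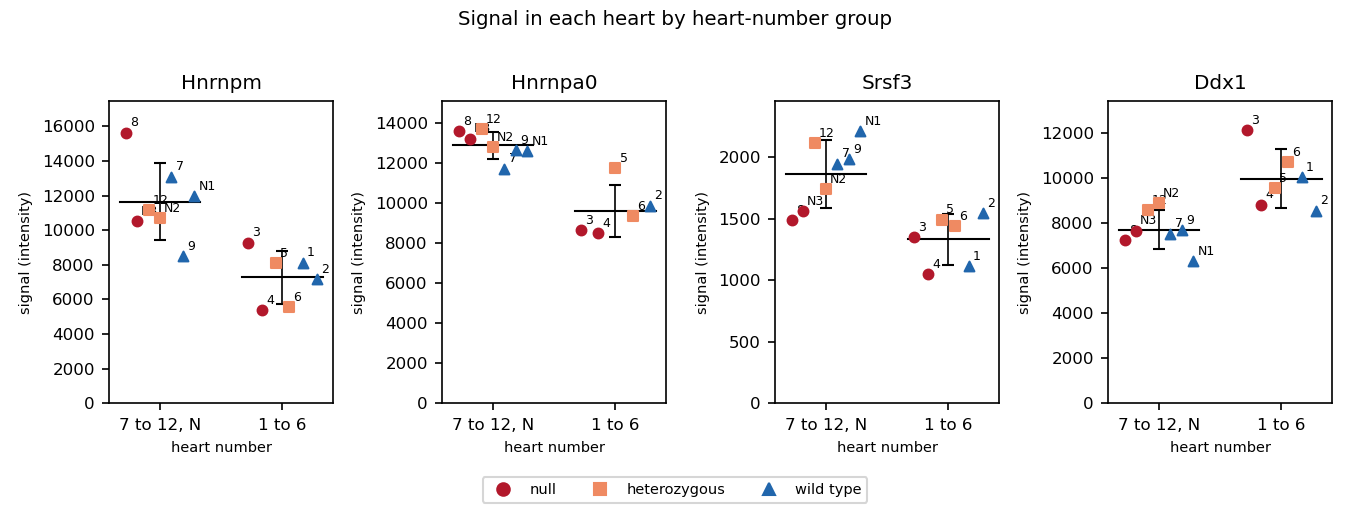
Signal in each heart (points, with the heart's number and coloured by genotype) of the 4 probe sets called between hearts 7 to 12 and N (left) and hearts 1 to 6 (right), with the mean (line) and SD (bar) of each group. Hnrnpm, Hnrnpa0 and Srsf3 are higher on the left and Ddx1 is lower, with some overlap in each.

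Some cell markers differed between the same groups of hearts. The median log2 difference between hearts 7 to 12 and N and hearts 1 to 6 was -0.38 for cardiomyocyte markers (3 of 11 probe sets called), -0.48 for erythroid markers (1 of 6), 0.29 for endothelial markers (2 of 6), 0.21 for fibroblast and cushion markers (1 of 8), 0.14 for skeletal muscle markers (1 of 4) and -0.33 for smooth muscle markers (0 of 2), where 7.14% of all tested probe sets were called. The called erythroid marker, Alas2 of haem synthesis (1.29), and the called skeletal muscle marker, the transcription factor Myog (-0.88), went against the medians of their lists. Sums were taken over the probe sets without blanks. For cardiomyocyte markers these were 2 of 11, of Actc1 (27375.7 to 229274.2, most of the sum) and Ryr2 (2648.5 to 6106.6). The cardiomyocyte sum ranged from 31388 to 158717 in hearts 7 to 12 and N, against 107948 to 232707 in hearts 1 to 6. The endothelial sum, over 3 of 7 (Kdr, Tie1 and Eng), ranged from 22255 to 34797 against 13036 to 22604. The liver sum, over 3 of 6 (of Alb and Afp), ranged from 456 to 1546 against 743 to 5867, with no liver probe set tested. Among defining markers, the liver genes Alb, Apoa1 and Ttr and the muscle factor Myod1 were above the floor in no heart. The liver gene Afp was above it in 2 of 13 hearts (up to 3658) and Myog in 5 of 10. Tnni2 and Ckm, also on the skeletal muscle list, were above it in 10 of 10 each, Ckm by its brighter probe set. Their signal was not used to tell skeletal from heart muscle. The part of these cell types in the differences of Hnrnpm, Hnrnpa0, Srsf3 and Ddx1 was not tested. Between null and wild-type hearts the medians were 0.28 for cardiomyocyte, 0.51 for erythroid and -0.26 for endothelial markers, with 0 called. They were -0.14 for fibroblast and cushion, 0.22 for skeletal muscle and 0.12 for smooth muscle markers, also with 0 called. On the skeletal muscle list Tnni2 had a log2 difference of 1.83 (adjusted p = 0.113 in limma) and Myog 0.36. The brighter Ckm probe set had 0.07 and the other -0.44.

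Promoters of the 4 genes that differed between the heart-number groups are shown to let their sequences be compared, from RefSeq (GRCm38.p6), as the 250 bases before the annotated start, 5′ to 3′ on the strand of the gene. Capitals mark a match to 1 of 4 motifs searched on both strands. The first was the CCAAT box, named for its letters and bound by the general factor NF-Y. Another was the GC box, GGGCGG, a site of Sp-family factors found in many promoters of widely expressed genes. A further motif was TATAAA, the usual form of the TATA box near the start of transcription. The last was TNAAGTG, the core sequence bound by Nkx2.5 and its relatives. The arrays do not measure promoters. Hnrnpm lies at chr17:33685459-33685708 on the minus strand, Hnrnpa0 at chr13:58128557-58128806 on the minus strand, Srsf3 at chr17:29032410-29032659 on the plus strand and Ddx1 at chr12:13249175-13249424 on the minus strand.
Hnrnpm: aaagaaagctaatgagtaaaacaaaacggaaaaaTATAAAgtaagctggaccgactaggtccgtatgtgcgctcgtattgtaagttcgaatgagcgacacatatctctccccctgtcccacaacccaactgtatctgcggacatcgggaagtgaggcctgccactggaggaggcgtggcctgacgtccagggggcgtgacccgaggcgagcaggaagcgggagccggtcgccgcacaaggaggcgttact
Hnrnpa0: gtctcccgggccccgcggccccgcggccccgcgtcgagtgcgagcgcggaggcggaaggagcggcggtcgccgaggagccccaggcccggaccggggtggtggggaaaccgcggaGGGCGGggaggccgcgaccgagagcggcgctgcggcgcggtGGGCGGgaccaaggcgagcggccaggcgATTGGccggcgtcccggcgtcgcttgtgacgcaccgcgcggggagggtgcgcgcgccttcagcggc
Srsf3: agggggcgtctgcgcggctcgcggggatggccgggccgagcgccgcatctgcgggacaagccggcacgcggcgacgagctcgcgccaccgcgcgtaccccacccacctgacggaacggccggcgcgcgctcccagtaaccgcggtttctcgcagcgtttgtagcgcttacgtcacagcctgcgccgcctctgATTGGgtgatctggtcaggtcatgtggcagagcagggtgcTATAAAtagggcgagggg
Ddx1: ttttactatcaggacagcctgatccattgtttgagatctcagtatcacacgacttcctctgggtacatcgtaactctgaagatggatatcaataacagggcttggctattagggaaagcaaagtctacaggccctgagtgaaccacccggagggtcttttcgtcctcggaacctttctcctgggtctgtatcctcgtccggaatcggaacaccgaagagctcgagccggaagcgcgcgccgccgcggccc
Hnrnpm held a TATAAA match, Hnrnpa0 a CCAAT match and 2 GC boxes, Srsf3 a CCAAT and a TATAAA match, and Ddx1 none of the 4 motifs. The TATAAA match lay close to the annotated start in Srsf3, but near the far end of the stretch in Hnrnpm. No motif was shared by the 3 genes that were higher. The GC content was 55.2% for Hnrnpm, 81.2% for Hnrnpa0, 69.6% for Srsf3 and 53.6% for Ddx1, against a median of 52.4% over all 32851 promoters and 58.6% over the 86 promoters found for 63 of the 71 genes. Over those 86 promoters the GC box occurred in 55.8% (32.7% of all promoters), the CCAAT box in 39.5% (33.8%), TATAAA in 10.5% (12.4%) and the Nkx2.5 core in 8.14% (10.1%).

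TNAAGTG was found in 7 of the 86 promoters, of 6 genes. These stretches are shown, with the match in capitals on either strand, because Nkx2.5 is the altered factor. They lie at chr13:58402128-58402174 (Hnrnpk, minus strand), chr11:50378202-50378248 (Hnrnph1, plus), chr10:62651335-62651381 (Ddx50, minus), chr6:86371290-86371336 (Snrpg, plus), chr11:88047123-88047159 (Srsf1, plus) and chr8:111031880-111031926 (Ddx19b, minus), and each is written along its gene. Snrpg holds a second match on the other strand, CACTTCA, which lies within the stretch shown and is left in lower case there.
Hnrnpk: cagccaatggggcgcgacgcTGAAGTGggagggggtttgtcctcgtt
Hnrnph1: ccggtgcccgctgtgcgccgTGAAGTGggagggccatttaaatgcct
Ddx50: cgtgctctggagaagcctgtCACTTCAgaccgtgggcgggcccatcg
Snrpg: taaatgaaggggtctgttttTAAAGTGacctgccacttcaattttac
Srsf1: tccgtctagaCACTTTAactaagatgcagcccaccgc
Ddx19b: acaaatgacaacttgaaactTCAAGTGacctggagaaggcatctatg
A match of 7 letters occurs by its letters alone in many promoters and is not a binding site. The log2 differences between null and wild-type hearts were 0.20 for Hnrnpk, -0.27 for Hnrnph1, 0.24 and -0.01 for the 2 Ddx50 probe sets, 0.15 for Snrpg and -0.13 to -0.20 for the 3 Srsf1 probe sets, and Ddx19b was above the floor in no heart. These 5 tested genes lay on both sides of 0, and none passed the test.

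Other genes of splicing, mRNA export and RNA helicase function outside the named families were counted for comparison. Of 140 such genes 75 were on the arrays, and 71 probe sets of 58 genes were tested. Between null and wild-type, heterozygous and wild-type, and null and heterozygous hearts, 0 passed, and at an unadjusted p under 0.05 there were 0, 1 and 4, against 2.4%, 3.38% and 5.79% of all tested probe sets. Their median log2 difference between null and wild-type hearts was 0.01, with 37 higher and 34 lower. Eif4a1, the translation helicase, had 13781 ± 3100.2 in null and 12328 ± 2349.6 in wild-type hearts (n = 4 and 5) by 1 of its probe sets. Tra2b, an SR-like splicing activator, had 7845 ± 1182 and 8620.5 ± 1003, and Rbfox2, a splicing regulator of muscle and heart, had 2219.7 ± 825 and 1680.1 ± 138. Between hearts 7 to 12 and N and hearts 1 to 6, 2 of the 71 passed, against 7.14% of all tested probe sets. Rbm14, a paraspeckle protein, was higher (4143 ± 611 against 2458 ± 371; log2 0.76 ± 0.15, adjusted p = 0.0107), and Celf1, a regulator of splicing in heart development, was lower (1162 ± 440.4 against 1897 ± 259; log2 -0.38 ± 0.11, adjusted p = 0.0466). Celf1 was above the floor in 3 of 7 and 6 of 6 hearts in the same order, and raising the others to the floor makes its log2 difference smaller than that of the means.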

How the data were processed

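Total RNA of 13 hearts was hybridised to 26 arrays of 2 designs. The deposited intensity values are 1 linear signal per probe set and array, some negative. The software and scaling behind them are not given in the sources used here, and no depth applies: the number of arrays limits the precision. The 55 control probe sets of each design were left out, and gene symbols came from the platform annotation, updated through the gene ID. Noise was the root mean square of a table's negative values (443 on A, 686 on B). Values were floored at 2 times the noise, log2-transformed and fitted per design with limma 3.58.1 (R 4.3.3; lmFit, eBayes with a variance trend) on all 13 hearts. Probe sets had to exceed the floor on at least 4 arrays. The p-values were adjusted by Benjamini-Hochberg over both designs, with a threshold of 0.05. The fit was checked on simulated data. Text names the called members, those with the smallest p-values per comparison and family, the most steadily detected of each family, those never above the floor, and those with several probe sets or groups apart. Members, lists and the grouping by heart number were chosen with earlier results of these data known. Alternatives covered scaling, floor, filter, blank arrays, heart-number block, variance trend, gene symbols, 1 probe set a gene and leaving out each heart. Probe sets naming a member together with other genes (9) were left out.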

Additional observations from a re-analysis of the deposited data

Results flagged for a closer look

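In 9 of 70 groups of 4 or 5 hearts that were checked, the highest or lowest heart lay apart from the others by Dixon's criterion at 95%. The nominal rate of that criterion is about 1 in 20. No share over all tested probe sets is given here beside it, and some of the values lay near the floor, so that no excess can be read from the count. Among null hearts, heart 3 was the highest for Dhx36 (2474.6) and Dhx32 (1303.3), heart 4 the highest for Hnrnpul2 (988.2), heart N3 the highest for Sf3b2 (3951.2) and heart 8 the lowest for Hnrnpdl (840.6). Among heterozygous hearts, heart 6 was the lowest for Sf3b2 (1975.4). Among wild-type hearts, heart 7 was the highest for Ddx50 (1011.5), heart 2 the highest for Hnrnpul2 (1220.4), and the same heart the lowest for Hnrnpu (5676.3). The causes were not tested.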

How the results depend on the processing

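No splicing or helicase probe set passed in any of the 3 genotype comparisons under any of the 20 alternatives that gave a count, and no named member reversed its sign under the alternatives that could be fitted. The calls between hearts 7 to 12 and N and hearts 1 to 6 depended on the processing. Of 4 in all, 3 were left with quantile scaling, a floor of 3 times the noise or no variance trend, 2 with a floor of 1 time the noise, 1 without the arrays that were mostly blank and 0 with no filter on dim probe sets (limma; 11 of 91 at an unadjusted p under 0.05). Leaving out 1 heart at a time gave 1 to 5 calls: 1 without null heart 4 (Hnrnpm), 2 without heterozygous heart 6 or 12 or wild-type heart 1, 2, 7 or N1, and 5 without wild-type heart 9. The adjusted p reached 0.16 for Hnrnpm, 0.0662 for Hnrnpa0, 0.105 for Srsf3 and 0.155 for Ddx1 over all alternatives. The median log2 difference between null and heterozygous hearts ranged from -0.13 without null heart 3 to -0.011 without heterozygous heart 5, and that between null and wild-type hearts from -0.11 to -0.0012. The causes were not tested. The heart-number block could not be used for the comparison between heart numbers. No paired analysis was possible because each heart number belongs to 1 genotype, and the labels name no litter or batch shared across genotypes. Values near the floor, and the 29 probe sets with 2 heterozygous values, limit what small differences could be seen.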
